A study of Mus musculus with 24 samples.

Results

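The 9 genes described here carry the insulin signal from the surface of the liver cell to its nucleus: Insr, Irs1, Irs2, Pik3r1, Akt1, Akt2, Foxo1, Foxo3 and Igfbp1. They were picked out of the 41388 listed genes by symbol, with earlier results of these data known. All 9 were among the 13052 genes that passed the filter on low counts. RNA was sequenced from the livers of 20 male C57BL/6J mice, 1 library per mouse and 5 mice in each of 4 groups. All mice were homozygous for a loxP-flanked Lpin1 allele. Adn-Lpin1-/- mice also carried a Cre recombinase driven by the promoter of the adiponectin gene, which is active in adipocytes, while their WT littermates lacked Cre. From 8 weeks of age, WT and Adn-Lpin1-/- mice were given either a low-fat diet (LFD, 10% of kcal from fat) or a high-fat diet (HFD, 60% of kcal from fat). The labels give 16 weeks on the diets and the methods of the study give 5 weeks, and all mice were fasted for 4 hours before tissue collection. The deletion was made in adipocytes, so liver Lpin1 is no check of genotype.

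Insulin binds its receptor, a tyrosine kinase that phosphorylates the insulin receptor substrates. These recruit phosphatidylinositol 3-kinase (PI3K), whose lipid product brings AKT kinases to the membrane to be activated, and AKT then keeps FOXO transcription factors out of the nucleus. In the liver, FOXO factors raise the transcription of genes of fasting such as Igfbp1, G6pc, Pck1 and Irs2, so that insulin lowers these messages.

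The promoter of Igfbp1 is the textbook site of insulin's repression, and the letters CAAAACA form the core of its insulin response element. This 7-base motif was searched on both strands of RefSeq promoter windows (GRCm38.p6, 250 bases before to 50 bases after each start), and 6.28% of all 32851 windows held it. Where it lies on the strand opposite to the gene, the window reads TGTTTTG. Of the 9 genes, 8 had at least 1 window, with 13 windows among them, and Insr had none. The share of 6.28% counts windows and not genes. G6pc, the catalytic subunit of glucose-6-phosphatase, and Pck1 were searched beside them. The motif was found in windows of 3 of those 8 genes, Igfbp1, Irs2 and Irs1, and in that of G6pc, but not for Pck1. These windows are shown because Igfbp1, Irs2 and G6pc are messages that insulin lowers and Irs1 is the other substrate of the receptor. Each is written 5′ to 3′ along the strand of its gene with the motif in capitals. The first window lies on the plus strand at chr11:7197537-7197836, the second on the minus strand at chr8:11008880-11009179, the third on the minus strand at chr1:82291390-82291689 and the last on the plus strand at chr11:101367466-101367765.
Igfbp1: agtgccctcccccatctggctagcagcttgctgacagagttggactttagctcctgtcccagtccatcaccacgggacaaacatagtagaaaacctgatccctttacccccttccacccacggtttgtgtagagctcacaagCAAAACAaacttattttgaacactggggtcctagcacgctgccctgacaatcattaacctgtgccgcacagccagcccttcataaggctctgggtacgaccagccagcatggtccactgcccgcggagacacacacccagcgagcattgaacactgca
Irs2: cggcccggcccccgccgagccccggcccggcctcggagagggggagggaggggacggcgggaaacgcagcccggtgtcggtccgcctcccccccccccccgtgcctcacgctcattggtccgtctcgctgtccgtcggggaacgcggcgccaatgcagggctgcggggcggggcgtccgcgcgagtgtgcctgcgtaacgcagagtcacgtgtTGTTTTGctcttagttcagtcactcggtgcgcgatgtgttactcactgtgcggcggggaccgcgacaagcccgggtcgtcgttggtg
Irs1: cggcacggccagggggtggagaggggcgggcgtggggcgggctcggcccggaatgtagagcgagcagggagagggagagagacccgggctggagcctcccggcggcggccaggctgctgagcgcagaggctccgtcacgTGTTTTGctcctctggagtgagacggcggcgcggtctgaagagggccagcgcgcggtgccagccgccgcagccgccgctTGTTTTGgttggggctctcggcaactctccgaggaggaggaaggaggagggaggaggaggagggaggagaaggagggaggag
G6pc: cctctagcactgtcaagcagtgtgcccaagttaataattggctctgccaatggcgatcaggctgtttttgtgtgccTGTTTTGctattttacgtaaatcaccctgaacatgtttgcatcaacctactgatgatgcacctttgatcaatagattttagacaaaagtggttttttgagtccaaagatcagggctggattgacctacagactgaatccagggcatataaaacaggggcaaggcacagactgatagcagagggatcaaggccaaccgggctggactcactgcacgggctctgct

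In Igfbp1 the motif lay 108 to 102 bases before the start, on the strand of the gene. In the other windows it lay on the opposite strand. It lay 37 to 31 bases before the start in Irs2, 174 to 168 bases in G6pc and at 2 places in Irs1. These distances are to the RefSeq start. The whole Irs2 window, from chr8:11008880, lies upstream of the Irs2 gene model counted here, which ends at chr8:11008458. The related forkhead motif GTAAACA, searched on both strands and held by 3.65% of all windows, was found in 1 window of Akt1 and in none of the others. A match of letters is a description of the window and does not show that a factor binds there.

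Total counts per library ran from 36260187 to 81072794, and WT LFD had the lowest median, 40777580, and Adn-Lpin1-/- HFD the highest, 62306028. Levels are given below as counts relative to library size, scaled between libraries by the TMM method (CPM). Differences are log2 fold changes from edgeR's quasi-likelihood test. Their standard errors (SE) were worked back from the F statistic of that test. The 95% intervals below are normal approximations from the SE and are slightly narrower than the F test would give. A gene was called where its adjusted p, by the Benjamini-Hochberg method over all 13052 genes, was at or below 0.05. Markers of other cells moved with genotype. Of 10 stellate cell markers 5 were called higher in Adn-Lpin1-/- mice on the LFD and 4 on the HFD, of 8 macrophage markers 0 and 6 were, of 7 endothelial markers 3 and 5 were, and of 8 hepatocyte markers 1 and 4 were called lower. The summed macrophage markers ran from 158.1 to 195.4 CPM in WT HFD and from 202.2 to 471.4 CPM in Adn-Lpin1-/- HFD. The summed hepatocyte markers ran from 93880 to 121500 CPM and from 79580 to 105200 CPM in these groups. On the LFD the macrophage sums overlapped, at 128.5 to 237.9 CPM in WT and 164 to 321.2 CPM in Adn-Lpin1-/- mice. The hepatocyte sums on the LFD ran from 104300 to 112300 CPM and from 76220 to 101300 CPM. The part of these shifts in the results below was not tested, and in whole tissue fewer cells of a type and less RNA per cell cannot be told apart.

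Read per kilobase of exon, Igfbp1 had the highest median level of the 9 genes over the 20 mice, 39.4 CPM per kb, and also the widest range, 10.5 to 136 CPM per kb. Akt1 and Akt2 followed with medians of 16 and 15.3 CPM per kb, and Akt1 was the higher of the pair in 13 of 20 mice, so their order was not fixed. Insr had a median of 11 CPM per kb and was below Akt2 in all 20 mice. Foxo1, Foxo3 and Pik3r1 came next with 9.68, 8.77 and 7.28 CPM per kb, and each was above the next in 16 or more of 20 mice. Irs2 had a median of 3.85 CPM per kb and Irs1 one of 1.13 CPM per kb, with Irs2 the higher substrate in all 20 mice. Of the 9144 exon bases of Irs1, 2822 are shared with the gene model Gm9747 on the opposite strand, which had no counts, and how the counting treated strand is not given in the sources used here. Over its unshared bases alone Irs1 would have a median of 1.63 CPM per kb, still below Irs2.

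**Figure D1:**
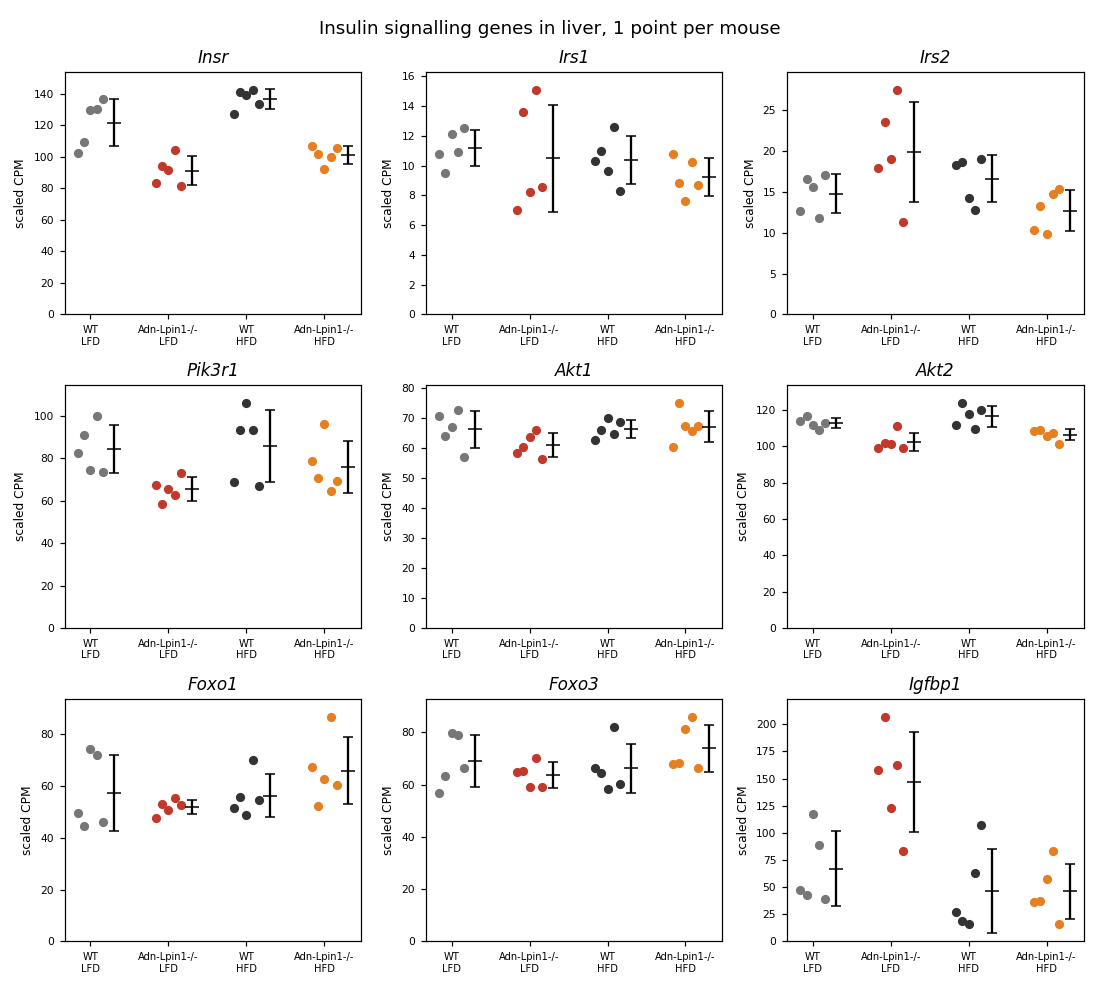
Scaled CPM (y axis, from 0) of each of the 9 genes in the 4 groups (x axis), with 1 point per mouse and the group mean ± SD of 5 mice beside the points. Insr was lower in Adn-Lpin1-/- mice on both diets, and Igfbp1 ran from 83.7 to 206.9 CPM in Adn-Lpin1-/- LFD against 16.4 to 83.5 CPM in Adn-Lpin1-/- HFD.

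Insr (ENSMUSG00000005534, chr8:3150922-3279617, minus strand, GRCm38), the insulin receptor, was the only one of the 9 genes called by genotype on each diet. On the LFD its levels in mice 1 to 5 were 102.6, 109.2, 129.6, 130.1 and 136.9 CPM in WT and 83.6, 94.2, 91.9, 104.5 and 81.7 CPM in Adn-Lpin1-/-. The groups met only where the highest Adn-Lpin1-/- mouse, mouse 4, stood above the lowest WT mouse, mouse 1. On the HFD the levels were 127.3, 141.3, 139.0, 142.5 and 133.7 CPM in WT and 106.7, 101.8, 92.2, 100 and 105.8 CPM in Adn-Lpin1-/-. Here the groups did not overlap, as for 11.4% of all tested genes. More than 20 CPM separated the lowest WT mouse from the highest Adn-Lpin1-/- mouse. Insr was 0.749-fold the WT level on the LFD and 0.741-fold on the HFD. The difference between these genotype effects was -0.02 on the log2 scale (95% interval -0.24 to 0.21, edgeR adjusted p = 0.992). Across both diets the log2 fold change was -0.42 (SE 0.06, edgeR adjusted p = 2.13e-05). By diet the log2 fold change of Insr was 0.17 in WT and 0.15 in Adn-Lpin1-/- mice, and neither passed the test (edgeR adjusted p = 0.312 and 0.362), and nor did the effect across genotypes (0.16, SE 0.06, edgeR adjusted p = 0.0905). The Adn-Lpin1-/- mice on the HFD, at 92.2 to 106.7 CPM, overlapped with only the lowest of the WT mice on the LFD.

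Among the 9 genes, 1 was called lower on each diet and none higher. Over all tested genes 14.4% were called by genotype on the LFD, 8.11% in the lower direction, and 18.6% on the HFD, 8.78% in the lower direction. The median log2 fold change of the 9 genes was -0.12 on the LFD and -0.13 on the HFD, beside 0.007 and 0.002 over all tested genes. Across both diets, 3 of 9 genes were called, Insr, Akt2 and Pik3r1, all lower in Adn-Lpin1-/- mice, where 32.9% of all tested genes were called and 15.8% were called lower.

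**Figure D2:**
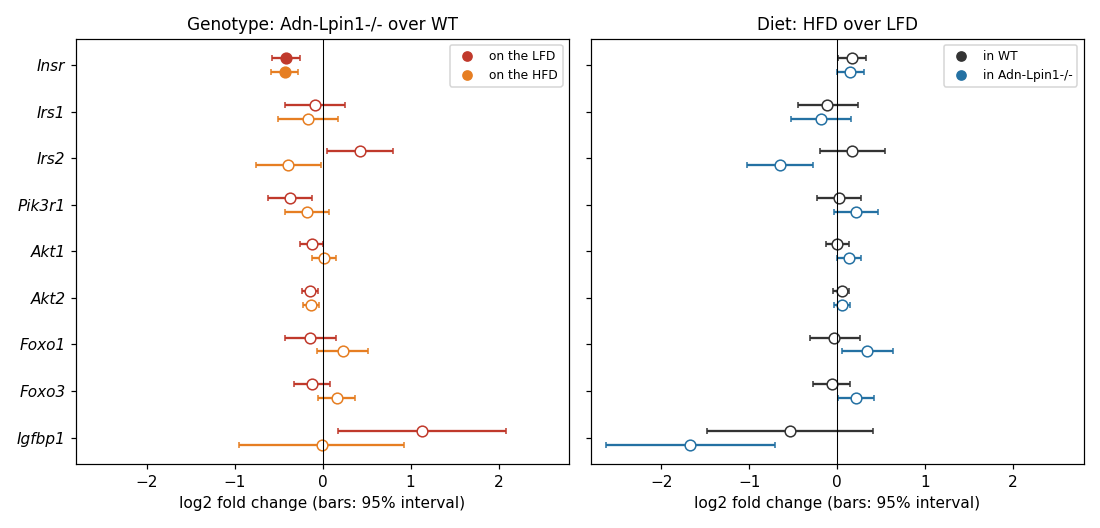
Log2 fold changes (x axis) of the 9 genes by genotype on each diet (left) and by diet in each genotype (right). Bars give the 95% interval approximated from the SE, and points are filled where the gene was called. Only Insr, at -0.42 and -0.43 by genotype, has filled points, and the intervals of Igfbp1 are the widest.

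The insulin receptor substrates, the docking proteins that link the receptor to PI3K, differed in their spread. Irs1 (ENSMUSG00000055980, chr1:82233101-82291416, minus strand) ran from 9.49 to 12.6 CPM in WT LFD, 6.99 to 15.1 CPM in Adn-Lpin1-/- LFD, 8.29 to 12.6 CPM in WT HFD and 7.65 to 10.8 CPM in Adn-Lpin1-/- HFD. All groups overlapped, and no comparison of Irs1 passed the test. In Adn-Lpin1-/- LFD, mice 2 and 4 stood at 13.6 and 15.1 CPM while the other three were at or below 8.59 CPM.

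Irs2 (ENSMUSG00000038894, chr8:10986980-11008458, minus strand), the substrate whose transcription insulin lowers, was measured in WT LFD mice 1 to 5 at 12.7, 16.6, 15.6, 11.9 and 17.1 CPM and in Adn-Lpin1-/- LFD mice at 17.9, 23.6, 19.1, 27.5 and 11.4 CPM. In 4 of 5 Adn-Lpin1-/- mice the level was above every WT mouse, and mouse 5 was below all of them. On the HFD it was 18.3, 18.7, 14.3, 12.8 and 19.04 CPM in WT and 10.3, 13.3, 9.8, 14.7 and 15.4 CPM in Adn-Lpin1-/-. There the Adn-Lpin1-/- mice were the lower group, though they overlapped with WT. The log2 fold change by genotype was 0.43 on the LFD (SE 0.19, edgeR adjusted p = 0.141) and -0.39 on the HFD (SE 0.19, edgeR adjusted p = 0.159), and neither was called. Without mouse 5 of Adn-Lpin1-/- LFD the first became 0.57 (edgeR adjusted p = 0.0318). The difference between the genotype effects, -0.81 on the log2 scale (95% interval -1.34 to -0.29), had an unadjusted p of 0.00652 in edgeR's test and an adjusted p of 0.538. None of the 9 genes was called for such a difference by edgeR, DESeq2 or voom, and Irs2 was the only 1 of the 9 with an unadjusted p under 0.05 in edgeR's test. Over all tested genes 0.00% were called for it by edgeR, 938 had an unadjusted p under 0.05, and DESeq2's Wald test called 30 and voom 0.

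Pik3r1 (ENSMUSG00000041417, chr13:101680563-101768217, minus strand) encodes p85α, the regulatory subunit of PI3K that binds the substrates. On the LFD it stood at 82.6, 91.1, 74.5, 100 and 73.4 CPM in WT and 67.4, 58.5, 65.4, 62.7 and 73.2 CPM in Adn-Lpin1-/-. The groups did not overlap, as for 10.1% of all tested genes, but the highest Adn-Lpin1-/- mouse and the lowest WT mouse were almost level. The log2 fold change was -0.37 (SE 0.13, edgeR adjusted p = 0.0603), and the two-sided exact permutation test gave p = 0.00794, the smallest that 5 against 5 mice allow. Pik3r1 on the LFD was called by DESeq2's Wald test (adjusted p = 0.0438) and by voom in limma (adjusted p = 0.0283). It was called in edgeR with only the 2 groups (adjusted p = 0.0278). Leaving out WT LFD mouse 5, WT HFD mouse 5 or Adn-Lpin1-/- HFD mouse 3 also gave a call in edgeR (adjusted p of 0.0483, 0.0471 and 0.0434). With the pools in edgeR it was called too (adjusted p = 0.0136), but the pools repeat RNA of the same mice and are no further replicates. On the HFD the levels were 68.9, 93.5, 105.9, 93.2 and 66.7 CPM in WT and 78.6, 70.6, 96.0, 64.6 and 69.4 CPM in Adn-Lpin1-/-. These groups overlapped, with a log2 fold change of -0.18 (SE 0.13, edgeR adjusted p = 0.355). Across diets Pik3r1 was called lower in Adn-Lpin1-/- mice, at -0.27 (SE 0.09, edgeR adjusted p = 0.0264), but leaving out WT LFD mouse 4, Adn-Lpin1-/- LFD mouse 2 or WT HFD mouse 3 ended the call (edgeR adjusted p of 0.0525, 0.0505 and 0.0544), as did removing a trend with GC content (edgeR adjusted p = 0.0709).

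Both AKT kinases were expressed at like levels per kilobase and varied little between mice. Akt2 (ENSMUSG00000004056, chr7:27591552-27640826, plus strand), the isoform tied to insulin's metabolic actions, stood on the LFD at 113.7, 116.8, 111.9, 109.0 and 112.7 CPM in WT and 98.8, 101.7, 101.5, 111.1 and 98.9 CPM in Adn-Lpin1-/-. All Adn-Lpin1-/- mice but mouse 4 were below every WT mouse. On the HFD it stood at 111.8, 123.6, 117.6, 109.6 and 119.8 CPM in WT and 108.6, 108.8, 105.9, 107.3 and 101.4 CPM in Adn-Lpin1-/-, and the groups did not overlap, as for 11.4% of all tested genes. The log2 fold change was -0.14 on the LFD and -0.13 on the HFD (both SE 0.05, edgeR adjusted p = 0.056 and 0.0622), and across diets it was called at -0.14 (SE 0.03, edgeR adjusted p = 0.00493). This call held in all 20 leave-one-mouse-out fits, with log2 fold changes of -0.15 to -0.12. On the LFD alone Akt2 was called without mouse 4 of Adn-Lpin1-/- (-0.17, edgeR adjusted p = 0.0254) and by DESeq2's Wald test (adjusted p = 0.029). On the HFD alone it was called by DESeq2's Wald test (adjusted p = 0.0288) and in 5 of 20 leave-one-mouse-out fits. Removing a trend with GC content gave a call on both diets (edgeR adjusted p of 0.0139 and 0.00707), and voom called Akt2 on neither.

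Akt1 (ENSMUSG00000001729, chr12:112653821-112674884, minus strand), the more widely expressed isoform, ran from 56.4 to 74.8 CPM over all 20 mice and its groups overlapped in every comparison. Its log2 fold change by genotype was -0.12 on the LFD (SE 0.07, edgeR adjusted p = 0.261) and 0.02 on the HFD (SE 0.07, edgeR adjusted p = 0.897), and neither was called. When a trend with GC content was removed, Akt1 was called lower on the LFD (-0.21, edgeR adjusted p = 0.0418) and across diets (-0.16, edgeR adjusted p = 0.0121), and its value on the HFD changed sign (-0.12). The ratio of Akt2 to Akt1 per kilobase had group medians of 0.905 to 1.

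The FOXO factors Foxo1 (ENSMUSG00000044167, chr3:52268337-52350109, plus strand) and Foxo3 (ENSMUSG00000048756, chr10:42181841-42276755, minus strand), the transcription factors that AKT restrains, were not called in any comparison. Foxo1 ran from 44.5 to 74.2 CPM in WT LFD, 47.8 to 55.2 CPM in Adn-Lpin1-/- LFD, 48.8 to 70.2 CPM in WT HFD and 52.3 to 86.7 CPM in Adn-Lpin1-/- HFD. The 5 Adn-Lpin1-/- LFD mice lay close together, and in each of the WT groups 1 or 2 mice stood well above the rest. Foxo3 ran from 56.7 to 79.8, 59.0 to 70.3, 58.2 to 82.3 and 66.6 to 86.0 CPM in the same order of groups. Foxo1 by diet in Adn-Lpin1-/- mice stood at 0.34 on the log2 scale (SE 0.15, edgeR adjusted p = 0.244), and the difference between its genotype effects on the HFD and the LFD at 0.37 (SE 0.21, edgeR adjusted p = 0.755). After each group's mean was subtracted, log2 levels of Foxo1 and Foxo3 had a Pearson r of 0.78 over the 20 mice (Spearman rho 0.66), and 0.71 without the 2 mice farthest from the median of Foxo1.

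Igfbp1 (ENSMUSG00000020429, chr11:7197782-7202546, plus strand), a secreted protein that binds insulin-like growth factors and whose message insulin lowers within hours, varied most. On the LFD it was measured at 47.0, 42.7, 117.8, 89.0 and 39.3 CPM in WT and 157.7, 206.9, 122.7, 162.2 and 83.7 CPM in Adn-Lpin1-/-. In 4 of 5 Adn-Lpin1-/- mice it was above every WT mouse. On the HFD it was 27.4, 18.7, 16.0, 62.7 and 107.3 CPM in WT and 36.4, 36.9, 57.5, 83.5 and 16.4 CPM in Adn-Lpin1-/-. WT mouse 5 was the highest of these 10 mice, and WT mice 2 and 3 and Adn-Lpin1-/- mouse 5 were the lowest. The log2 fold change by genotype was 1.13 on the LFD (SE 0.48, edgeR adjusted p = 0.127) and -0.01 on the HFD (SE 0.48, edgeR adjusted p = 0.99). Without WT HFD mouse 5 the second became 0.55. The first was called in edgeR with only the 2 groups (adjusted p = 0.0384), but in none of the 20 leave-one-mouse-out fits. Its two-sided exact permutation test gave p = 0.0317. By diet the log2 fold change was -0.53 in WT (SE 0.48, edgeR adjusted p = 0.641) and -1.67 in Adn-Lpin1-/- mice (SE 0.49, edgeR adjusted p = 0.0791). In Adn-Lpin1-/- mice the diet groups did not overlap, as for 4.06% of all tested genes, and the two-sided exact permutation test gave p = 0.00794, the smallest possible. The closest mice stood at 83.7 CPM on the LFD and 83.5 CPM on the HFD. This diet effect was called by DESeq2's Wald test (adjusted p = 0.0425) and by voom (adjusted p = 0.0419). In edgeR it was called when WT HFD mouse 5 or Adn-Lpin1-/- HFD mouse 4 was left out (edgeR adjusted p of 0.0402 and 0.0463). The difference between the genotype effects on the 2 diets was -1.14 (95% interval -2.47 to 0.20, edgeR adjusted p = 0.783). Without WT HFD mouse 5 this became -0.58 and the diet effect in WT -1.10, and voom gave -0.78 and -1.11. Without WT LFD mouse 3 the diet effect in WT was -0.23, and none of these was called.

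By diet, none of the 9 genes was called by edgeR's test in WT, in Adn-Lpin1-/- mice or across genotypes, and 1, 3 and 2 of them had an unadjusted p under 0.05. DESeq2's Wald test called 0, 2 and 1 of the 9, and voom called 0, 1 and 1. Over all tested genes edgeR called 1.10%, 2.46% and 7.26% in these comparisons, and the first 2 of these shares moved with single mice. Leaving out 1 mouse gave 55 to 289 called genes in place of 144, and 123 to 383 in place of 321. In WT the diet groups overlapped for each of the 9 genes, while they did not overlap for 3.73% of all tested genes. The nearest to a call were Igfbp1 across genotypes, at -1.10 (SE 0.34, edgeR adjusted p = 0.0557), and Irs2 in Adn-Lpin1-/- mice, at -0.65 (SE 0.19, edgeR adjusted p = 0.0791).

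Other genes that FOXO factors drive were read beside Igfbp1. G6pc, at the last step of glucose release, was measured at 467.8, 351.5, 493.1, 355.6 and 170.7 CPM in WT LFD and 584.1, 666.9, 666.9, 836.2 and 523.9 CPM in Adn-Lpin1-/- LFD. Those groups did not overlap, as for 10.1% of all tested genes, yet the log2 fold change of 0.83 was not called (SE 0.32, edgeR adjusted p = 0.0892). On the HFD G6pc was 175.5, 239.8, 155.0, 299.1 and 521.8 CPM in WT and 279.8, 200.4, 173.6, 348.5 and 115.4 CPM in Adn-Lpin1-/-. G6pc fell by diet in Adn-Lpin1-/- mice, at -1.55 (SE 0.33, edgeR adjusted p = 0.0168), with no overlap, as for 4.06% of all tested genes. In WT the value was -0.40 (SE 0.32, edgeR adjusted p = 0.585). The difference between these diet effects was not called (-1.15, 95% interval -2.04 to -0.26, edgeR adjusted p = 0.63).

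Pck1, the cytosolic PEPCK of gluconeogenesis, ran from 2244 to 5432 CPM in WT LFD, 3603 to 6332 CPM in Adn-Lpin1-/- LFD, 1245 to 3611 CPM in WT HFD and 2418 to 6459 CPM in Adn-Lpin1-/- HFD. It was lower on the HFD across genotypes (-0.69, SE 0.21, edgeR adjusted p = 0.0499), as was Ppargc1a, a coactivator of FOXO1 (-0.37, SE 0.11, edgeR adjusted p = 0.0497), both just inside the threshold. Ppargc1a ran from 8.49 to 19.02 CPM and 13.1 to 16.1 CPM on the LFD and from 7.64 to 12.8 CPM and 10.2 to 13.8 CPM on the HFD, in WT and Adn-Lpin1-/- mice. Srebf1, a transcription factor of fatty acid synthesis that insulin raises, ran from 283.4 to 466.4 CPM in WT LFD, 346.2 to 557.3 CPM in Adn-Lpin1-/- LFD, 397.9 to 508.3 CPM in WT HFD and 253.0 to 614.5 CPM in Adn-Lpin1-/- HFD, and was not called in any comparison. Igf1r, the receptor of IGF-1, stayed between 0.54 and 1.504 CPM in all 20 mice, and Socs3, an inhibitor of cytokine and insulin signalling, between 4.02 and 23.6 CPM, and neither was called.

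Within groups, the log2 levels of Igfbp1 had a Pearson r of 0.77 with Pck1 (Spearman rho 0.81) and of 0.76 with G6pc (rho 0.72) over the 20 mice, after each group's mean was subtracted. Without the 2 mice farthest from the median of Igfbp1 these were 0.80 and 0.63. Igfbp1 had an r of 0.61 with Foxo1 and of 0.62 with Foxo3. Without the 2 mice farthest from the median of Foxo1 the first was 0.48. The second was 0.53 without the 2 mice farthest from the median of Foxo3. Over all 36 pairs of the 9 genes r ran from -0.66 to 0.78 with a median of 0.10, 4 pairs were above 0.5 and 1 was below -0.5. That pair was Irs2 with Pik3r1 (rho -0.69), and Insr was most alike Irs1 among the 9 (r 0.65, rho 0.65). All points of a mouse come from 1 library and share its scaling and composition, so these values are descriptions.

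**Figure D3:**
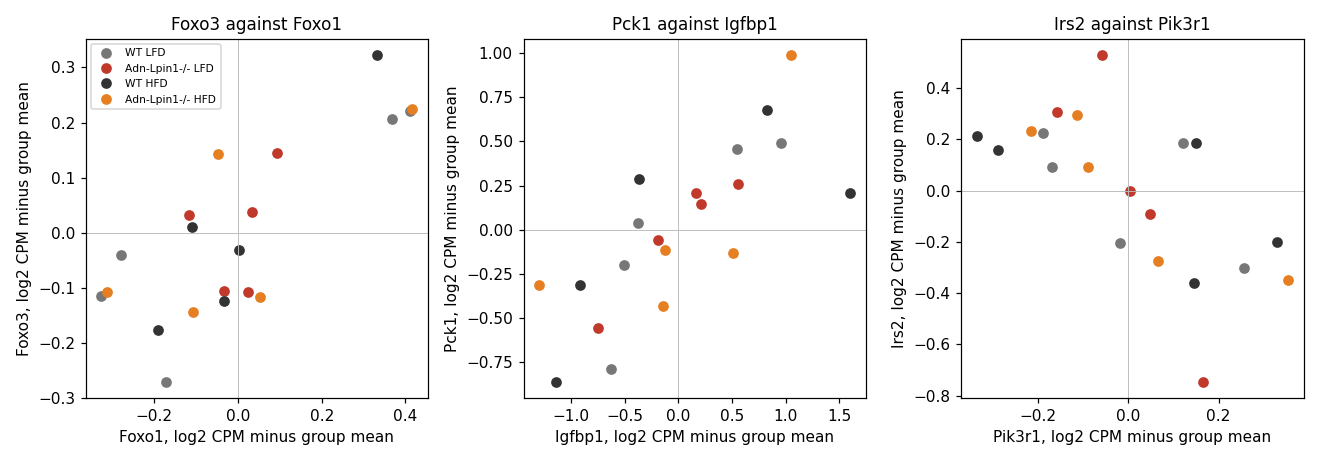
Log2 CPM minus the group mean of one gene (y axis) against another (x axis), with 1 point per mouse and colours for the 4 groups. Foxo3 and Foxo1 were high in the same mice (r 0.78), as were Pck1 and Igfbp1 (r 0.77), while mice high in Pik3r1 were low in Irs2 (r -0.66).

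Over all tested genes, those most alike Insr by the same measure were Met, the receptor of hepatocyte growth factor (r 0.84), 0610010F05Rik (0.84) and Tgs1 (0.83). For Irs2 they were Ell (0.82), Ung (0.82) and Nat10 (0.79). For Igfbp1 they were Tat, the tyrosine aminotransferase induced in fasting (0.87), Rrm2 (0.87) and Gm7599 (0.82). These are the highest of 13052 values in each case, over 20 mice.

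The wider pathway was read from 9 lists of 82 genes, of which 77 were tested, the 9 genes included. The lists were chosen with earlier results of these data known, so the shares called in them, here and below, are descriptions. Of the other 68 tested genes, 3 were called higher and 7 lower in Adn-Lpin1-/- mice on the LFD, 14.7% in all beside 14.4% of all tested genes, and 8 higher and 8 lower on the HFD, 23.5% in all beside 18.6%. Their median log2 fold changes, 0.03 and 0.01, were near those of all genes. Of the 77 genes, 9 were called on both diets, all in the same direction on both (11.7%, against 7.78% of all tested genes). Among them Insr, Rictor, Sos1, Rps6kb1 and Sirt1 were lower, and Inppl1, Tbc1d1 and Pdk4 were higher.

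**Figure D4:**
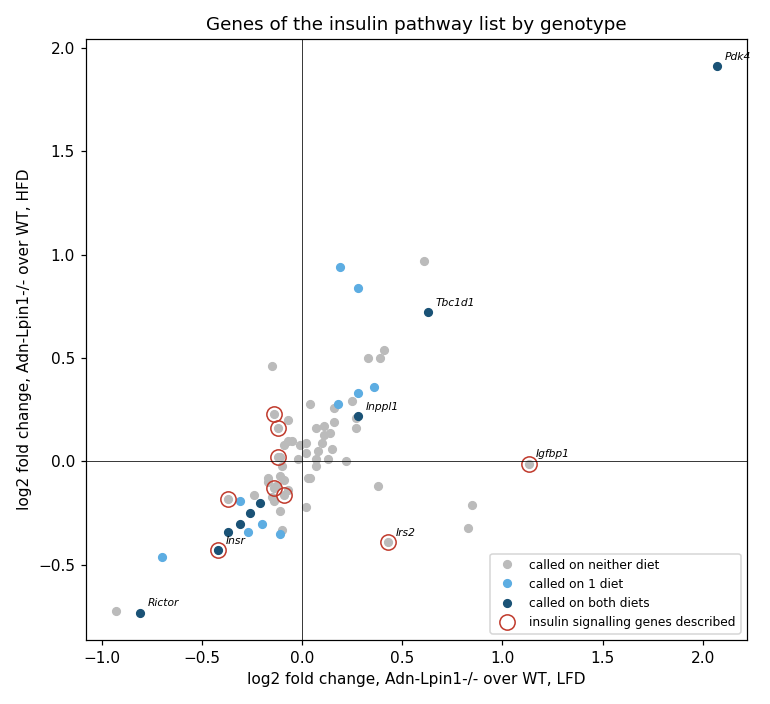
Log2 fold change in Adn-Lpin1-/- over WT mice on the HFD (y axis) against the LFD (x axis) for 77 tested pathway genes, 1 point per gene, coloured by whether it was called on both diets, 1 diet or neither, with the 9 insulin signalling genes circled. Rictor lies lowest of the genes called on both diets and Pdk4 highest, while Igfbp1 and Irs2 lie to the right of 0 on the LFD, at 1.13 and 0.43, and at -0.01 and -0.39 on the HFD.

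Rictor, the subunit of mTOR complex 2 needed for the second activating phosphorylation of AKT, had the smallest adjusted p of the pathway on both diets. It was 26.1 ± 2.52 CPM (SD, n = 5) in WT LFD, 14.8 ± 2.24 CPM in Adn-Lpin1-/- LFD, 23.1 ± 2.14 CPM in WT HFD and 13.9 ± 2.24 CPM in Adn-Lpin1-/- HFD. The groups did not overlap on the LFD, as for 10.1% of all tested genes, nor on the HFD, as for 11.4%. The log2 fold changes were -0.81 and -0.73 (both SE 0.11, edgeR adjusted p = 0.000133 and 0.000324). Pdpk1, the kinase that gives AKT its first phosphorylation, was called lower on the HFD (-0.30, SE 0.08, edgeR adjusted p = 0.0155) and stood at -0.20 on the LFD (edgeR adjusted p = 0.109). Of the 9 genes of AKT and its activation, 3 were called higher and 3 lower across diets (66.7%, against 32.9% of all tested genes). On the LFD alone 0 were called higher and 1 lower (11.1%, against 14.4% of all tested genes). On the HFD alone 1 was called higher and 2 lower (33.3%, against 18.6%).

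Near the receptor, Sos1, the exchange factor that leads to RAS, was lower on both diets (-0.26 and -0.25, edgeR adjusted p = 0.0104 and 0.0113). It was, with Insr, one of 2 called among the 10 tested receptors, substrates and adaptors on each diet (20%, against 14.4% and 18.6% of all tested genes). Of 16 tested inhibitors of the pathway, 3 were called higher and 3 lower on the HFD (37.5%, against 18.6% of all tested genes). The higher ones were phosphatases that remove the 5-phosphate from the PI3K product or related lipids, Inppl1 (0.22), Inpp5k (0.28) and Inpp5d (0.84), the last expressed mainly in blood cells. The lower ones included Grb14, which blocks the receptor kinase (-0.35), and Enpp1 (-0.34). On the LFD, 1 of the 16 was called higher, Inppl1 (0.28), and 1 lower (12.5%, against 14.4% of all tested genes).

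Downstream, Rps6kb1, the S6 kinase of mTOR complex 1, was lower on both diets (-0.21 and -0.20), and Deptor, an mTOR inhibitor, on the LFD (-0.31). The AKT substrate Tbc1d1 was higher (0.63 and 0.72), and the deacetylase Sirt1, which acts on FOXO factors, was lower (-0.37 and -0.34). Of 12 genes that insulin lowers, Insr included, 1 was called higher and 2 lower on the LFD and 2 higher and 1 lower on the HFD, 25.0% on each diet beside 14.4% and 18.6% of all tested genes. Insr was among the lower on both diets, and Ccng2, a cyclin, was higher on the HFD (0.33, SE 0.11). Pdk4, which blocks pyruvate use, was higher on both diets (2.07, SE 0.58 and 1.91, SE 0.57), and Sesn3 was lower on the LFD (-0.70, SE 0.21). Pdk4 ran from 5.45 to 25.0 CPM in Adn-Lpin1-/- LFD against 1.79 to 3.92 CPM in WT LFD, whereas on the HFD the groups overlapped.

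By diet, Pnpla3, a lipid droplet protein that insulin raises, was the only pathway gene called in WT (-2.71, SE 0.51, edgeR adjusted p = 0.0128). In Adn-Lpin1-/- mice it was called as well (-2.36, SE 0.48, edgeR adjusted p = 0.0122), with G6pc and the fatty acid elongase Elovl6 (-1.20, SE 0.26, edgeR adjusted p = 0.0177). Across genotypes 6 of 77 pathway genes were called, all lower on the HFD (7.79%, near the 7.26% of all tested genes). These were Pnpla3, Elovl6, G6pc, Pck1, Ppargc1a and Rheb, the GTPase that activates mTOR complex 1 (-0.18, SE 0.05, edgeR adjusted p = 0.0396).

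A pooled library of each group, made from RNA of its mice, was used above only in the Pik3r1 fit with the pools. For the 9 genes in 4 groups, 32 of 36 pool values lay within the range of the single mice, and the pool was 0.847 to 1.11 times their mean. The 4 values outside were those of Akt1 in WT HFD, Akt2 in WT LFD and in Adn-Lpin1-/- HFD, and Foxo1 in Adn-Lpin1-/- LFD.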

How the data were processed

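Per the labels and the methods of the study, poly-A selected liver RNA was sequenced, and the authors aligned reads with STAR 2.5.1a to GRCm38 and counted uniquely aligned, unambiguous reads per gene with featureCounts 1.4.6-p5. The deposited count column, whole numbers without normalization, was used here. The deposited CPM and RPKM columns, which the authors scaled by library total and by total and length, were not used. The 355 rRNA genes were left out, and genes were tested where CPM was over 1 in at least 4 of 20 libraries. TMM scaling and edgeR's quasi-likelihood test (edgeR 4.0.16, R 4.3.3) were fitted over the 4 groups. Alternatives were DESeq2 1.42.0, voom in limma 3.58.1, other filters, the 4 pools, 2-group fits, a replicate block and each mouse left out. The edgeR, DESeq2 and voom fits were also run on counts simulated with changes larger than that of Insr, in the LFD genotype comparison. Only edgeR had a criterion to meet there, and the other alternatives were not simulated. The study's own analysis used voom. Exact permutation tests were two-sided, on log2 CPM. The labels do not say whether libraries were prepared in batches. The 9 genes and the pathway lists were chosen with earlier results of these data known. Named genes were the 9, companions fixed by symbol (Pck1, G6pc, Ppargc1a, Srebf1, Igf1r, Socs3), up to 10 called pathway genes per comparison by adjusted p, and the 3 genes most alike Insr, Irs2 and Igfbp1. Some genes of the rule are not reported here. Called genes outside this rule are named only where a list is described. The 9 genes were grouped by role.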

Additional observations from a re-analysis of the deposited data

Results flagged for a closer look

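Akt2 in mouse 4 of Adn-Lpin1-/- LFD, at 111.1 CPM, stood apart from the other 4 mice of its group, of which the nearest was at 101.7 CPM. The gap was 0.762 of the range of the group, above Dixon's critical value of 0.71 for 5 mice. Of 36 groups examined (9 genes in 4 groups) this was the only one past that value, and chance alone would pass about 1 in 20 groups.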

How the results depend on the processing

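Insr was called lower in Adn-Lpin1-/- mice on both diets under all 9 other settings and in all 20 leave-one-mouse-out fits (log2 fold change -0.47 to -0.37 on the LFD and -0.47 to -0.40 on the HFD over the latter). The other counts were less stable, and the cause was not tested. The pools repeat RNA of the same mice, so counts with the pools treat that RNA as a further replicate. By genotype on the LFD, the 9 genes had 1 call, and 3 with DESeq2's Wald test, 2 with voom, 4 with the pools, 3 with only the 2 groups and 3 with a GC trend removed, a setting chosen after seeing the data. On the HFD they had 1, and 2 with Wald, the pools, filterByExpr or the GC trend removed. By diet in Adn-Lpin1-/- mice they had 0, and 2 with Wald, 1 with voom and 2 with the pools. By diet across genotypes they had 0, and 1 with Wald, 1 with voom and 2 with the pools. Of the 77 pathway genes, calls by genotype on the LFD numbered 11 and 24 with the pools, 1 by diet in WT and 3 with voom, 3 by diet in Adn-Lpin1-/- mice and 7 with Wald or 8 with the pools, and 6 by diet across genotypes and 10 with Wald, 12 with voom, 18 with the pools or 3 with filterByExpr. Leaving out 1 mouse gave 1 to 2 of the 9 genes by genotype on either diet, 0 to 1 by diet in Adn-Lpin1-/- mice and 0 to 2 by diet across genotypes. For the pathway it gave 7 to 14 by genotype on the LFD (lowest without WT LFD mouse 2 or 3 or Adn-Lpin1-/- LFD mouse 2), 11 to 18 on the HFD (lowest without mouse 2 of Adn-Lpin1-/- HFD), 3 to 5 by diet in Adn-Lpin1-/- mice (highest without mouse 4 of its HFD group) and 3 to 11 by diet across genotypes (highest without mouse 5 of WT LFD). Over all tested genes, 1877 calls by genotype on the LFD became 1208 without WT LFD mouse 3 and 2434 on the HFD became 1477 without Adn-Lpin1-/- HFD mouse 2. The 144 by diet in WT ran from 55 (without WT HFD mouse 3) to 289 (without WT LFD mouse 5), and were 95 or fewer also without WT LFD mouse 1, 2 or 4 or WT HFD mouse 1, 2 or 4. The 321 by diet in Adn-Lpin1-/- mice ran from 123 (without LFD mouse 3) to 383, and were 210 or fewer also without LFD mouse 2 or 4 or HFD mouse 1, 2 or 5. Irs2 by diet in Adn-Lpin1-/- mice was called without mouse 5 of Adn-Lpin1-/- LFD (-0.79, edgeR adjusted p = 0.0126) and by DESeq2's Wald test (adjusted p = 0.0208).

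Values near 0 changed sign. These were Akt1 by genotype on the HFD (-0.01 with filterByExpr, -0.12 with the GC trend removed), Igfbp1 by genotype on the HFD (0.42 with voom), Akt1 by diet in WT (-0.02 with voom, -0.01 with the pools), the Akt2 difference between genotype effects (-0.03 with the pools, -0.01 with no filter and with filterByExpr, -0.02 with the GC trend removed), and Irs2 and Foxo3 by genotype across diets (-0.07 and -0.03 with the GC trend removed). With 1 mouse left out, signs changed by genotype on the LFD for Irs1 (-0.26 to 0.02), on the HFD for Akt1 (-0.03 to 0.05) and Igfbp1 (-0.34 to 0.55), by diet in WT for Pik3r1 (-0.06 to 0.10), Akt1 (-0.05 to 0.04) and Foxo1 (-0.12 to 0.08), by genotype across diets for Irs2 (-0.05 to 0.09), Foxo1 (-0.02 to 0.09) and Foxo3 (-0.02 to 0.06), and in the difference between genotype effects for Insr (-0.07 to 0.04), Irs1 (-0.20 to 0.09) and Akt2 (-0.02 to 0.04).

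With the replicate number as a block, 1 of the 9 genes was called by genotype on each diet, Insr at -0.41 on the LFD, and 11 and 13 pathway genes. Same-numbered mice deviated together by over 0.1 in only 6 of 30 pairs (r -0.415 to 0.281), so the numbers were not taken to pair mice. Low levels such as that of Igf1r rest on few counts and are the least precise.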
